A study of Mus musculus with 12 samples.

Results

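The loci of 9 cell cycle control genes were followed through the ATAC-seq peak lists of hernia-associated fibroblasts (HAFs): the CDK inhibitors Cdkn1a, Cdkn1b and Cdkn1c, the kinases Wee1, Cdc7 and Cdk1, the cyclins Ccnd1 and Ccne1, and the transcription factor Myc. They are 9 of 21938 protein-coding genes in the annotation used. A locus was the gene body plus 50000 bp upstream, and a peak belonged to it when its summit, the position of highest signal, lay inside. By this rule the 9 loci held 260 of 658361 peaks. A promoter was listed when a summit lay within 3000 bp of any transcript start of the gene. The study named Wee1, Cdc7 and Cdkn1c on the fulvestrant side of its comparison, and the other 6 belong to the same control circuit. Positions are given in bp from the nearest transcript start, with a minus sign upstream.

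ATAC-seq uses a transposase that inserts sequencing adapters where DNA is accessible. The HAFs were primary cells from the lower abdominal muscle of Aromhum mice, a transgenic line expressing human aromatase, the enzyme that makes estrogen from androgen, and every group carried that genotype. All cultures were starved overnight in serum-free medium, then received fulvestrant or its solvent DMSO for 3 h before E2 or its solvent ethanol was added for 1 h. The vehicle group had both solvents. The E2 group had 10 nM E2, the E2 plus fulvestrant group had 10 nM E2 with 100 nM fulvestrant, and the fulvestrant group had 100 nM fulvestrant. Fulvestrant is an antagonist that also leads to loss of the estrogen receptor. Each group had 3 libraries. The labels do not say whether these came from separate mice, so the p-values below measure only the spread between libraries, which may be technical. No wild-type cells were included.

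Cyclin-dependent kinases carry a cell from one phase to the next when a cyclin binds them. D-type cyclins answer growth signals, cyclin E acts with its kinase at entry into DNA synthesis, and Cdk1 acts at entry into mitosis. Inhibitors of the Cip/Kip family hold these complexes back, Wee1 keeps Cdk1 inactive by phosphorylating it, and Cdc7 fires replication origins. Fibroblasts deprived of serum largely leave the cycle, and Myc, an early target of growth factors and of estrogen in several tissues, is among the genes that respond when signals return. Accessibility at a promoter is not a measure of transcription.

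The libraries differed widely. Lists held from 30062 to 110724 peaks, and the share of peaks passing a q-value of 0.05 ran from 7.35% to 46.4%. Of all protein-coding promoters, from 17.3% to 62.7% were listed. Replicate 1 of each group and vehicle replicate 3 listed between 53.7% and 62.7% of them, vehicle replicate 2 listed 44.3%, and the other 6 libraries between 17.3% and 29.6%. The replicate 1 libraries also had 22 to 36 peaks on the Y chromosome, against 854 to 1148 in the other 8, which sets replicate number 1 apart in every group. Of 10 fibroblast markers, each promoter was listed in 3 to 9 libraries, with Pdgfra in 7, Col1a1 in 9 and Esr1, the estrogen receptor gene, in 7. Promoters of Pax7 and Myod1, which define muscle precursors, were listed in 0 of 12, although the myogenic Myf5 was listed in 1, Myog in 4 and Des in 6. Of the adipocyte genes, Adipoq was listed in 0, Pparg in 1 and Plin1 in 10. Endothelial markers were listed in 2 to 6 libraries, with a median of 5 against 6 for the fibroblast markers. Immune markers were listed in 1 to 5 and epithelial markers in 1 to 4. A listed promoter therefore did not mark cell type by itself.

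The reference DNA at or near the strongest promoter summits is given next, as a description of sequence and not of chromatin. The stretches below are taken from GRCm38.p6, the sequence of mm10, and run 5′ to 3′ on the strand of the gene. Each is the stretch outside annotated exons nearest to the promoter summit of highest fold enrichment. Capitals mark matches, on either strand, to a CCAAT box (CCAAT), a GC box (GGGCGG), the cell cycle homology region or CHR (TTTGAA or TTCGAA) and an E2F site (TTTGGCGC or TTTCGCGC). No base belonged to more than 1 of the motifs searched. The kinases come first, because Cdk1 has the fullest set. The Cdk1 stretch, chr10:69352939-69353088 on the minus strand, ends at the base before the gene's start. The Wee1 stretch, chr7:110121885-110122034 on the plus strand, and the Cdc7 stretch, chr5:106964426-106964550 on the plus strand, follow. The Wee1 stretch is upstream of the gene and the Cdc7 stretch is intronic, just before one of its later starts.
Cdk1: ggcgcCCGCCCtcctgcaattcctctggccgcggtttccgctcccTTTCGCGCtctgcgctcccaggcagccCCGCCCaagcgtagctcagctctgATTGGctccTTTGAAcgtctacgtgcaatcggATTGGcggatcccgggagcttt
Wee1: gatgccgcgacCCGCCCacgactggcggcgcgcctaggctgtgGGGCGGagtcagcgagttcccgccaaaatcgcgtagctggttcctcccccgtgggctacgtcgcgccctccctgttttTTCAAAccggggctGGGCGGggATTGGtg
Cdc7: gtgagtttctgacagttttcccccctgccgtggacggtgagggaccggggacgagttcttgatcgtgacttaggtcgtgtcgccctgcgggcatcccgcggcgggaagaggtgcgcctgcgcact

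Among the CDK inhibitors, Cdkn1b alone has CCAAT letters in its stretch. The Cdkn1b stretch, chr6:134920240-134920389 on the plus strand, lies upstream of the gene with a CCAAT box near each end. The Cdkn1a stretch, chr17:29095404-29095553 on the plus strand, and the Cdkn1c stretch, chr7:143460717-143460852 on the minus strand, are intronic and hold 1 GC box each. Exons cover the Cdkn1c summit itself, which lies 101 bp away. The 201 bases centred on that summit, exons included, do hold a CCAAT box.
Cdkn1b: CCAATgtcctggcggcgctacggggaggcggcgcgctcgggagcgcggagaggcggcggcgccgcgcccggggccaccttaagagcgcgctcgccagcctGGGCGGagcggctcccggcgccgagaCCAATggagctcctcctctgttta
Cdkn1a: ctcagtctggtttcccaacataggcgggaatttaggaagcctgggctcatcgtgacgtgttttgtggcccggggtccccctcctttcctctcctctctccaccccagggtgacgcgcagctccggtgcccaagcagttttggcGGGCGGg
Cdkn1c: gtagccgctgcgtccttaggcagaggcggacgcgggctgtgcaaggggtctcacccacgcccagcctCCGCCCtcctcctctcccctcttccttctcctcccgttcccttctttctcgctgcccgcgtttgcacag

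Among the cyclins and Myc, the Ccne1 stretch, chr7:38107573-38107722 on the minus strand, holds a GC box in an upstream sequence of high GC content. The Ccnd1 stretch, chr7:144941499-144941648 on the minus strand, lies well upstream of the start, at -1723 to -1574, and holds a CCAAT box. The Myc stretch, chr15:61987304-61987421 on the plus strand, is intronic, ends just before an internal start, and holds a run of CA repeats with no match to a motif searched.
Ccne1: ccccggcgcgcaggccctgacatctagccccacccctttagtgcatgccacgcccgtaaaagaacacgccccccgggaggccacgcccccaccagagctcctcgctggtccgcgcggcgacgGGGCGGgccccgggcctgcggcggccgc
Ccnd1: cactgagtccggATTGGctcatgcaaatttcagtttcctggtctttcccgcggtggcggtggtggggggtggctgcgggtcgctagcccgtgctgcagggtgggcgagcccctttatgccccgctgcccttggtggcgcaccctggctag
Myc: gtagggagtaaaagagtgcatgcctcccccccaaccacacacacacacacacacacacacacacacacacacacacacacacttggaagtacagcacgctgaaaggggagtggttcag

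Motif letters were counted in 201 bases centred on the best summit of each listed promoter, exons included. A CCAAT box was present at 6 of the 9 genes and at 28.2% of the 19355 promoters listed in any library. A GC box was present at 5 of 9, against 38.3% of all. CHR letters were present at Wee1 and Cdk1 only among the 9, against 7.08% of all, and the E box CACGTG was present at Wee1 only, against 6.37%. An AP-1 site (TGACTCA or TGAGTCA) lay at Cdkn1a only, against 3.19%. No member window held an E2F site, a CRE (TGACGTCA), the estrogen response element (GGTCANNNTGACC), or a p53 element, which were found in 0.677%, 1.80%, 0.0310% and 0% of all promoters. The E2F letters printed for Cdk1 run across the edge of its window and so were not counted. These windows had a median GC content of 65.7% in the 9 genes and 59.2% over all promoters, and Ccne1 was the highest at 77.6%. The letters are a description of these windows and show neither binding nor its absence.

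On average the 9 loci together carried more peaks in vehicle than in any treated group, but the groups overlapped. Summed over the 9 loci, vehicle libraries 1 to 3 had 34, 34 and 25 peaks, E2 libraries 33, 19 and 10, E2 plus fulvestrant libraries 31, 8 and 16, and fulvestrant libraries 32, 11 and 7. The group means were 31.0 ± 5.20 for vehicle, 20.7 ± 11.6 for E2, 18.3 ± 11.7 for E2 plus fulvestrant and 16.7 ± 13.4 for fulvestrant (SD, n = 3). Replicate 1 libraries were alike across the 4 treatments, at 31 to 34 peaks. Replicates 2 and 3 of the treated groups lay below them, at 7 to 19 peaks. Per 10000 peaks of the list the means were 4.37, 3.75, 4.02 and 3.37 in the same order. The summed peaks followed list length, with Pearson's r of 0.88 and Spearman's rho of 0.939 over the 12 libraries. When only peaks with q of 0.05 or less were counted, the sums were 9, 7 and 18 in vehicle, 21, 1 and 1 with E2, 17, 0 and 3 with E2 plus fulvestrant, and 20, 5 and 1 with fulvestrant.

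**Figure D1:**
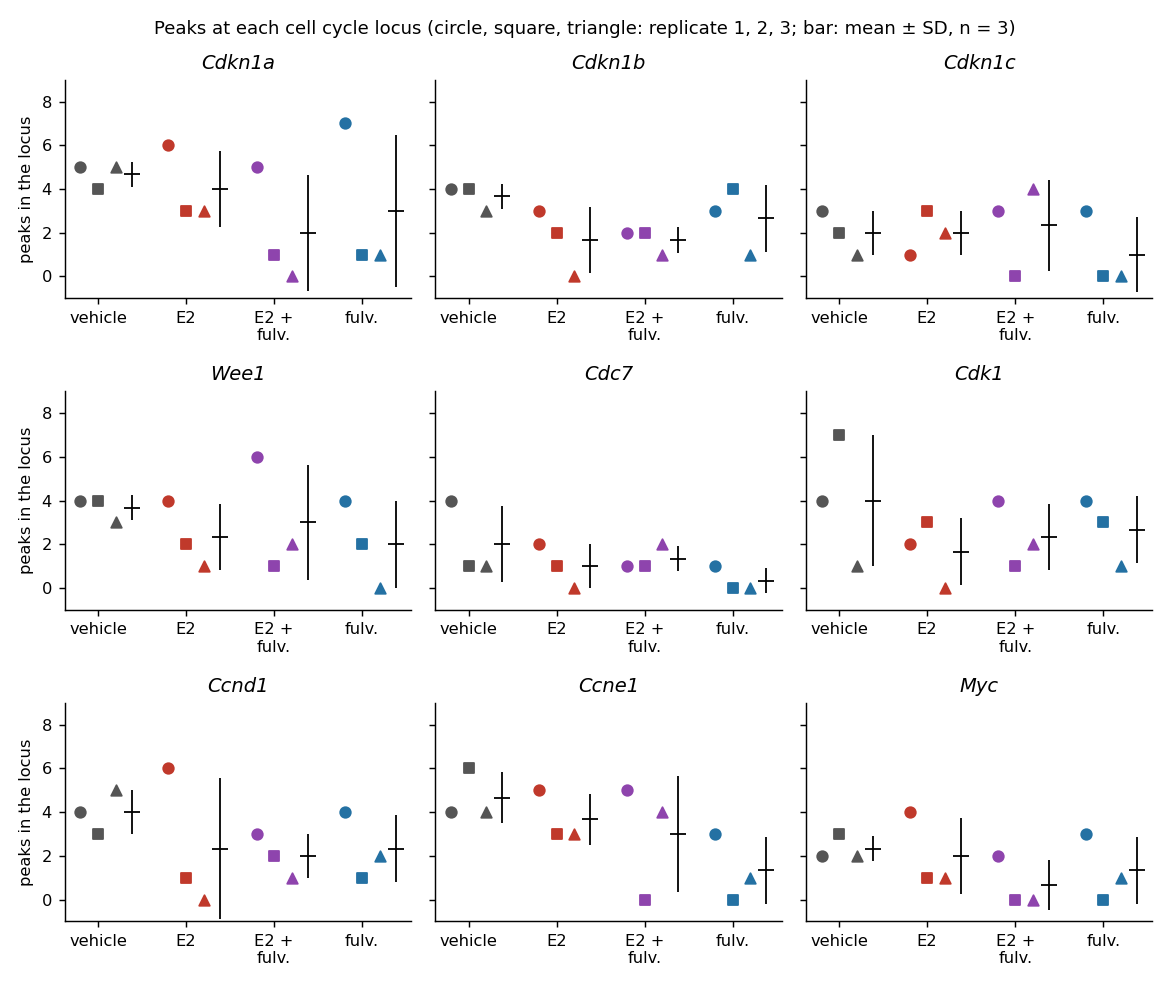
Peaks in each locus (y axis, number of peaks) by treatment (x axis), with 1 point per library and the mean ± SD of 3 libraries beside each group. Replicate 1 (circles) is at or near the top of most treated groups, and Ccne1 in fulvestrant and Cdkn1b in E2 plus fulvestrant are the 2 cases in which a treated group lies wholly below vehicle.

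Cdkn1a encodes p21, the CDK inhibitor induced by p53. Its locus had 5, 4 and 5 peaks in vehicle, 6, 3 and 3 with E2, 5, 1 and 0 with E2 plus fulvestrant, and 7, 1 and 1 with fulvestrant. Replicate 1 of each group had at least 5, while replicates 2 and 3 of both groups with fulvestrant had 1 or 0, and the groups overlapped. E2 exceeded E2 plus fulvestrant by 2.0 peaks on average (exact permutation p = 0.40, Benjamini-Hochberg adjusted p = 1.0 over 21291 loci). The promoter was listed in 9 libraries: all of vehicle, all of E2, 1 of E2 plus fulvestrant and 2 of fulvestrant. Where listed, the highest fold enrichment, the ratio of the tag pileup to the local background, ran from 3.07 in E2 replicate 2 to 5.56 in vehicle replicate 3. Of the 5 transcript starts of Cdkn1a, that at 29093781 on chromosome 17 drew the summits of replicate 1 of E2, E2 plus fulvestrant and fulvestrant and of fulvestrant replicate 2, each 86 to 117 bp downstream of it. The E2 replicate 2 peak lay at -2815 bp, had 6 tags and did not pass q of 0.05.

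The Cdkn1a locus also takes in starts of other genes. The region of highest fold enrichment, 11.3, was not at Cdkn1a but at -11875 bp, at the start of Trp53cor1, a long noncoding RNA of the p53 response. It was listed at q of 0.05 or less in 5 libraries: vehicle replicates 1 and 3 and replicate 1 of each treated group. Another region, at -28522 bp in an intron of Trp53cor1 with a fold enrichment up to 5.04, was listed in the same 5. Of the 41 peaks of this locus, 15 lay at starts of Cdkn1a, 18 at starts of another gene and 8 at neither.

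Cdkn1b encodes p27, which holds cells in quiescence. Its locus had 4, 4 and 3 peaks in vehicle, 3, 2 and 0 with E2, 2, 2 and 1 with E2 plus fulvestrant, and 3, 4 and 1 with fulvestrant. All 3 E2 plus fulvestrant libraries lay below all 3 vehicle libraries, by 2.0 peaks on average (exact permutation p = 0.10, the smallest that 3 against 3 allows, adjusted p = 1.0). Per 10000 peaks and in the other 5 ways of counting tried these groups overlapped. Peaks at the promoter were listed in 7 libraries, at 7.62, 2.78 and 8.39 fold in vehicle, 6.08 fold in E2 replicate 1, 8.93 fold in E2 plus fulvestrant replicate 1, and 7.73 and 3.81 fold in fulvestrant replicates 1 and 2. The vehicle replicate 2 peak lay at -2285 bp with 4 tags, whereas the other 6 summits lay between -86 and 116 bp. Another region, at -22102 bp and at the starts of Gpr19 and 2810454H06Rik, was listed in 6 libraries with a fold enrichment up to 7.38.

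Cdkn1c encodes p57, an imprinted CDK inhibitor. Its highest promoter fold enrichment, 3.93, was below that of each of the other 8 genes. Its locus had 3, 2 and 1 peaks in vehicle, 1, 3 and 2 with E2, 3, 0 and 4 with E2 plus fulvestrant, and 3, 0 and 0 with fulvestrant. All group ranges overlapped over the full lists. With lists of equal length, all 3 vehicle libraries had 1 peak and all 3 fulvestrant libraries 0, when 2.57% of loci separated. E2 was 0.333 peaks below E2 plus fulvestrant (exact permutation p = 1.0). The region at its start was listed in replicate 1 of each of the 4 groups and in no other library. Those 4 libraries held 6, 12, 10 and 10 tags at their best promoter peak for vehicle, E2, E2 plus fulvestrant and fulvestrant, and the best fulvestrant peak lay past the 3′ end of the gene, 2328 bp from its nearest start. Of the 19 regions in this locus, 18 were listed by 1 library each.

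Wee1 encodes the kinase that restrains Cdk1 until DNA replication is complete. It had the strongest promoter of the 9 genes. Its locus had 4, 4 and 3 peaks in vehicle, 4, 2 and 1 with E2, 6, 1 and 2 with E2 plus fulvestrant, and 4, 2 and 0 with fulvestrant, with overlap between all groups. In the gene body only, all 3 vehicle libraries had 1 peak and all 3 fulvestrant libraries 0, and 3.25% of loci separated. Within 10000 bp upstream, E2 lay below vehicle, as 2.56% of loci separated. E2 was 0.667 peaks below E2 plus fulvestrant (exact permutation p = 0.90). The promoter was listed in 7 libraries, and all 7 passed q of 0.05: at 6.82 and 10.6 fold in vehicle replicates 1 and 3, at 11.1 fold in E2 replicate 1, level with E2 plus fulvestrant replicate 1 (log2 ratio 0.00), at 4.45 fold in E2 plus fulvestrant replicate 3, and at 11.5 and 7.21 fold in fulvestrant replicates 1 and 2. The pileup ran from 8 tags in E2 plus fulvestrant replicate 3 (95% exact Poisson interval 3.45 to 15.8) to 59 in fulvestrant replicate 1 (44.9 to 76.1). Poisson intervals here cover counting error only. All 7 summits lay between -282 and -84 bp from the single annotated start, 5 of them within the stretch printed above.

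Cdc7 encodes the kinase that activates the replicative helicase. Its locus was sparse, with 4, 1 and 1 peaks in vehicle, 2, 1 and 0 with E2, 1, 1 and 2 with E2 plus fulvestrant, and 1, 0 and 0 with fulvestrant. The groups overlapped in every comparison, and E2 was 0.333 peaks below E2 plus fulvestrant (exact permutation p = 1.0). In the gene body only, the E2 libraries had 0, 0 and 0 peaks and the E2 plus fulvestrant libraries 1, 1 and 2, so that these groups did not overlap, while 2.25% of 17372 loci separated and none had an adjusted p under 0.05. The promoter was listed in 7 libraries, and 4 passed q of 0.05: vehicle replicate 3 at 6.25 fold, E2 replicate 1 at 5.33, E2 plus fulvestrant replicate 1 at 6.25 and fulvestrant replicate 1 at 7.81. The E2 replicate 2 peak lay at -2773 bp with 5 tags. The other 6 summits fell between -109 and 68 bp from 1 of the 7 starts.

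Cdk1 encodes the mitotic kinase that Wee1 inhibits. Its locus had 4, 7 and 1 peaks in vehicle, 2, 3 and 0 with E2, 4, 1 and 2 with E2 plus fulvestrant, and 4, 3 and 1 with fulvestrant. Vehicle alone ranged from 1 to 7, and no comparison separated. Its promoter appeared in 8 libraries, 5 of them at q of 0.05 or less and with 6.12 to 7.66 fold, which were vehicle replicates 1 and 3 and replicate 1 of the treated groups. Summits of those 5 lay from -105 to 318 bp from a start, and that of vehicle replicate 3 fell on the last base of the stretch printed above. The remaining 3, in vehicle replicate 2 and fulvestrant replicates 2 and 3, held 5, 5 and 8 tags.

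Ccnd1 encodes cyclin D1, which links growth factor and estrogen signals to the cell cycle. Its locus had 4, 3 and 5 peaks in vehicle, 6, 1 and 0 with E2, 3, 2 and 1 with E2 plus fulvestrant, and 4, 1 and 2 with fulvestrant. The highest and the lowest counts were both in E2, and E2 exceeded E2 plus fulvestrant by 0.333 peaks (exact permutation p = 1.0). The region listed most often lay upstream of the start. It appeared in 5 libraries, with best summits between -1729 and -1536 bp in vehicle replicate 3, E2 replicate 1, E2 plus fulvestrant replicate 1 and fulvestrant replicate 3. Fulvestrant replicate 1 also listed it, although its best promoter peak was at an internal start. Over the 6 libraries that listed the promoter, the highest fold enrichment stayed between 3.12 and 4.26, on 7 to 12 tags.

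Ccne1 encodes cyclin E1, the partner of Cdk2 at entry into DNA synthesis. Its locus had 4, 6 and 4 peaks in vehicle, 5, 3 and 3 with E2, 5, 0 and 4 with E2 plus fulvestrant, and 3, 0 and 1 with fulvestrant. All 3 fulvestrant libraries lay below all 3 vehicle libraries, by 3.33 peaks on average (exact permutation p = 0.10, the smallest possible, adjusted p = 1.0 over 21456 loci). They lay below also per 10000 peaks, when 8.29% of loci separated. In the other 5 ways of counting (q of 0.05 or less, fold enrichment of at least 5, lists of equal length, the gene body only, or 10000 bp upstream) these groups overlapped. Of 8 libraries listing the promoter, 5 passed q of 0.05, at 4.05 and 7.19 fold in vehicle replicates 1 and 3 and at 5.46, 7.62 and 7.74 fold in replicate 1 of E2, E2 plus fulvestrant and fulvestrant. Their summits lay between -169 and -114 bp. In vehicle replicate 2, E2 replicate 3 and E2 plus fulvestrant replicate 3 the best peak was nearest an internal start, with 5 tags each. The region at the first start was listed in 6 libraries.

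Myc had 2, 3 and 2 peaks in vehicle, 4, 1 and 1 with E2, 2, 0 and 0 with E2 plus fulvestrant, and 3, 0 and 1 with fulvestrant. E2 exceeded E2 plus fulvestrant by 1.33 peaks on average, and the groups overlapped (exact permutation p = 0.50). The promoter was listed in 6 libraries with 2.86 to 5.52 fold. The highest value was in E2 replicate 1, with 19 tags (95% Poisson interval 11.4 to 29.7), against 10 tags in E2 plus fulvestrant replicate 1 (4.80 to 18.4). The intervals overlapped. In all 6 libraries the summit lay between -192 and 148 bp from an internal start, either 61987034 or 61987422 on chromosome 15, and the separate region at the first start was listed in replicate 1 of each group only.

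**Figure D2:**
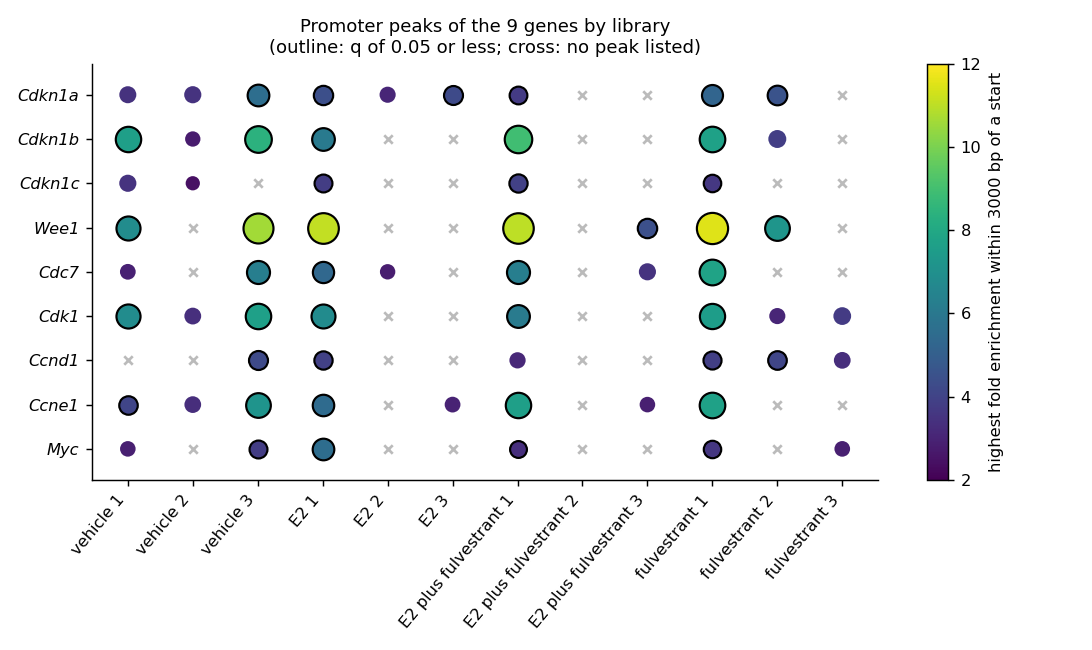
Highest fold enrichment of a promoter peak (colour and circle size) for each gene (y axis) in each library (x axis), with an outline where q was 0.05 or less and a cross where no peak was listed. Outlined circles fill the columns of E2 replicate 1 and fulvestrant replicate 1, with 9 of 9 each, while E2 plus fulvestrant replicate 2 has 9 crosses.

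How many of the 9 promoters a library listed went with how many promoters it listed at all. Vehicle libraries listed 8, 5 and 8 of 9, E2 libraries 9, 2 and 2, E2 plus fulvestrant libraries 9, 0 and 3, and fulvestrant libraries 9, 5 and 3. These add up to 21 of 27 in vehicle, 13 with E2, 12 with E2 plus fulvestrant and 17 with fulvestrant. Against the percentage of all protein-coding promoters listed, the number of member promoters had Pearson's r of 0.956 and Spearman's rho of 0.922 over the 12 libraries, which share their reads and depth between both measures. A median of 7 libraries listed a member promoter, against 5 for all promoters and 7 for the 63 other cell cycle genes examined. Fewer tags and less accessible DNA cannot be told apart for a promoter missing from a list: the fewest tags that could be listed were 3 (vehicle replicates 1 and 2), 5 (fulvestrant replicate 3) or 4 (every other library).

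**Figure D3:**
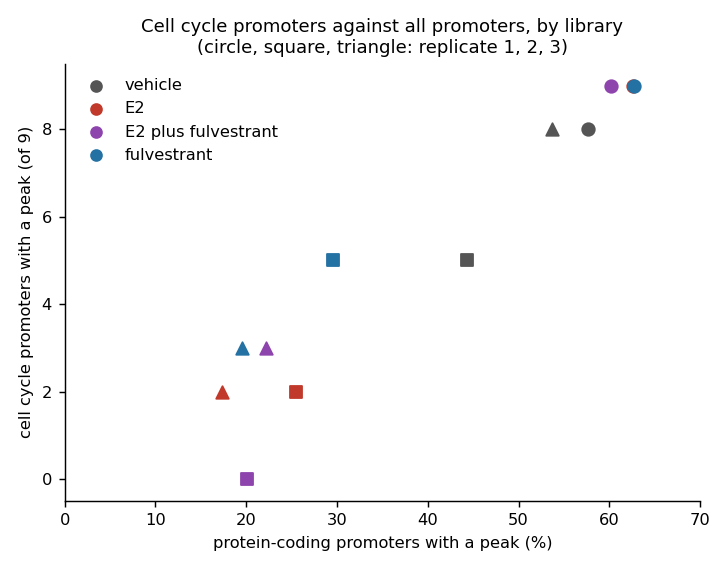
Member promoters with a peak (y axis, of 9) against all protein-coding promoters with a peak (x axis, percent), with 1 point per library coloured by treatment and shaped by replicate number. The 5 libraries above 50% list 8 or 9, those below 30% list 0 to 5, and the points of E2 and fulvestrant replicate 1 coincide at the upper right.

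E2 against E2 plus fulvestrant is the contrast in which the study named Wee1, Cdc7 and Cdkn1c. The study took them from genes shared by RNA-seq after a longer treatment, ChIP-seq of the estrogen receptor, and ATAC-seq. It compared read counts, so the peak numbers below are an unlike measure and do not test that naming. In locus peak number, none of the 9 genes separated these groups, while 2.16% of 21291 loci did. The mean was higher with E2 at 4 genes (Cdkn1a, Myc, Ccne1 and Ccnd1), lower at 4 (Wee1, Cdc7, Cdkn1c and Cdk1) and equal at Cdkn1b, with a median difference of 0 against 0.333 over all loci. Wee1, Cdc7 and Cdkn1c were lower with E2 by 0.333 to 0.667 peaks, in each case less than the SD within either group, which ran from 0.577 to 2.65. No locus of the genome had an adjusted p under 0.05 in any of the 4 contrasts, nor an unadjusted one, since 0.10 is the smallest p that 3 against 3 allows. Without E2 plus fulvestrant replicate 1, Cdkn1a and Myc had more peaks in every E2 library than in the remaining 2, as 9.21% of all loci then separated.

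Against vehicle, E2 had a lower mean at 8 genes and an equal one at Cdkn1c, with a median difference of -1.0 peak in the 9 and -1.0 over all loci. None of the 9 separated, against 3.43% of 21528 loci. Without E2 replicate 1, 6 of the 9 lay below vehicle, when 24.9% of all loci separated, and without vehicle replicate 3, Cdkn1b and Cdk1 did, when 18.1% separated. Fulvestrant alone had a lower mean than vehicle at all 9 genes (median -1.67, against -1.0 over all loci), and Ccne1 was the 1 of 9 that separated, against 4.8% of 21456 loci. Without fulvestrant replicate 1, 7 of 9 did, against 30.2%. E2 plus fulvestrant had a lower mean at 8 genes and a higher one at Cdkn1c (median -1.67, against -1.33), and Cdkn1b was the 1 that separated, against 5.83% of 21462 loci. Leaving out E2 plus fulvestrant replicate 1 raised this to 5 of 9, against 27.1%, and leaving out vehicle replicate 2 added Ccnd1, against 8.76%. The 3 contrasts with vehicle share its libraries. Within replicate numbers 2 and 3 the counts were 0 higher and 6 lower for E2, 0 and 7 for fulvestrant and 0 and 5 for E2 plus fulvestrant, while 29.5%, 35.5% and 32.1% of all loci were lower. For E2 against E2 plus fulvestrant in those libraries 2 were higher and 0 lower, beside 9.88% and 8.48% of all loci. Per 10000 peaks the counts against vehicle were 1 higher and 1 lower for E2 (10.0% and 19.5% of all loci), 0 and 4 for fulvestrant (14.3% and 17.7%) and 1 and 2 for E2 plus fulvestrant (14.8% and 16.1%). Between E2 and E2 plus fulvestrant they were 2 and 2 (15.4% and 15.9%).

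Promoter fold enrichment could be compared across all 12 libraries for 166 genes. None of the 9 genes and none of the 63 other cell cycle genes was among them, and limma called none of the 166 in any contrast, with at most 1 at an unadjusted p under 0.05. Over only the 6 libraries of a contrast, Cdkn1a could be fitted for E2 minus vehicle (0.07 ± 0.31 on the log2 scale, limma adjusted p = 0.996 over 760 promoters) and Cdk1 for fulvestrant minus vehicle (-0.18 ± 0.28, limma adjusted p = 1.0 over 1131 promoters). The best peaks in both fits lay at unlike sites. For Cdkn1a they lay 948, 324 and 1698 bp from a start in vehicle replicates 1, 2 and 3. In E2 they lay at 102, -2815 and 693 bp. For Cdk1, those of vehicle replicate 2 and fulvestrant replicate 3 were near internal starts, at 2382 and -455 bp. To give every member a value, a fit chosen after seeing the lists took all 19355 promoters listed anywhere and set each unlisted one to a fold enrichment of 1, that is, 0 on the log2 scale, with each library centred on its mean. No promoter was called at an adjusted p under 0.05 (0% in each contrast and in the interaction of E2 with fulvestrant), and 139, 376, 225, 332 and 188 promoters had an unadjusted p under 0.05. For E2 minus E2 plus fulvestrant, Cdkn1a had the largest difference of the 9, 1.31 ± 0.70 on the log2 scale (SE, limma adjusted p = 1.0, 95% interval -0.08 to 2.71), with 2 of 3 values in E2 plus fulvestrant imputed. Wee1 had -0.72 ± 0.76, Cdc7 -0.18 ± 0.72 and Cdkn1c -0.02 ± 0.70, with 95% intervals from -2.23 to 0.79, from -1.62 to 1.25 and from -1.42 to 1.38. Of 3 values per group, Wee1 had 1 measured in E2 and 2 in E2 plus fulvestrant. Cdc7 had 2 measured in each group and Cdkn1c 1, and the rest were imputed. For fulvestrant minus vehicle, Ccnd1 had 1.52 ± 0.70 (limma adjusted p = 0.967, 95% interval 0.13 to 2.92), with 3 of 3 fulvestrant values and 1 of 3 vehicle values measured. The fulvestrant peaks were at unlike sites, 378, 91 and -1536 bp from a start in replicates 1, 2 and 3, and that of replicate 3 did not pass q of 0.05. Without centring the Ccnd1 difference was 1.21 ± 0.77, with an interval from -0.45 to 2.86. In the interaction of E2 with fulvestrant, Ccnd1 had the largest value, 1.63 ± 0.99 (limma adjusted p = 0.998). Every interval reached more than 1 log2 unit to either side of its estimate.

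**Figure D4:**
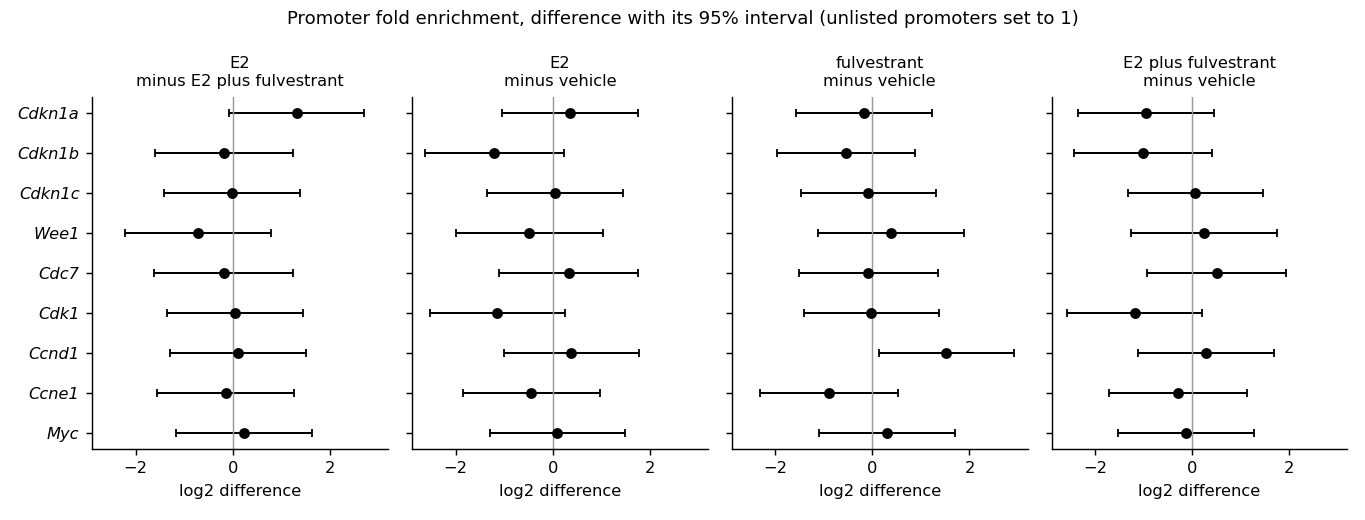
Difference in log2 promoter fold enrichment (x axis) for each gene (y axis) in 4 contrasts, with its 95% interval from limma. Unlisted promoters were set to 1, and in this fit, without a replicate block, every interval but that of Ccnd1 in fulvestrant minus vehicle includes 0.

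Replicate number 1 offers a comparison in libraries that listed nearly all the member promoters. It has 1 library a group and so no test. E2 and E2 plus fulvestrant were both listed at all 9 genes. Wee1 had a log2 ratio of 0.00 on 43 and 50 tags, Cdc7 5.33 and 6.25 fold on 11 and 13, and Cdkn1c 3.78 and 3.93 fold on 12 and 10. Cdkn1b differed most toward E2 plus fulvestrant, with 6.08 against 8.93 fold on 17 and 29 tags, and Myc most toward E2, with 5.52 against 3.35 fold on 19 and 10. All 9 pairs of exact Poisson intervals overlapped. Of the 9, 5 were higher with E2, against 43.0% of the 11423 promoters listed in both, and the median log2 ratio was 0.00 against -0.06. Compared with vehicle replicate 1, whose background was the lowest of all libraries, most promoters were higher in replicate 1 of each treatment, at 79.4% for E2, 84.3% for fulvestrant and 82.2% for E2 plus fulvestrant. The median log2 ratio of the 8 members listed in both was 0.40 for E2, 0.47 for fulvestrant and 0.23 for E2 plus fulvestrant, beside 0.34, 0.45 and 0.39 over all promoters.

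Merging overlapping peaks of all lists gave 146 regions in the 9 loci. Of these, 105 (71.9%) were listed by 1 library only, against 77.7% of all 435284 regions, and 15 (10.3%) by 5 or more, against 4.48%. None was listed by all 12. Those 15 comprised 9 at starts of the genes, 3 at starts of neighbouring genes and 3 distal. Replicate 1 of each treated group and vehicle replicate 3 listed 14 of the 15 each and vehicle replicate 1 listed 12, whereas E2 replicates 2 and 3 listed 0. No region of the 9 loci was listed by all 3 libraries of 1 group and 0 of the other. This held for the 88 regions of E2 against E2 plus fulvestrant, 106 of E2 against vehicle, 93 of fulvestrant against vehicle and 100 of E2 plus fulvestrant against vehicle, where the shares over all regions were 0.178%, 0.141%, 0.149% and 0.158%.

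**Figure D5:**
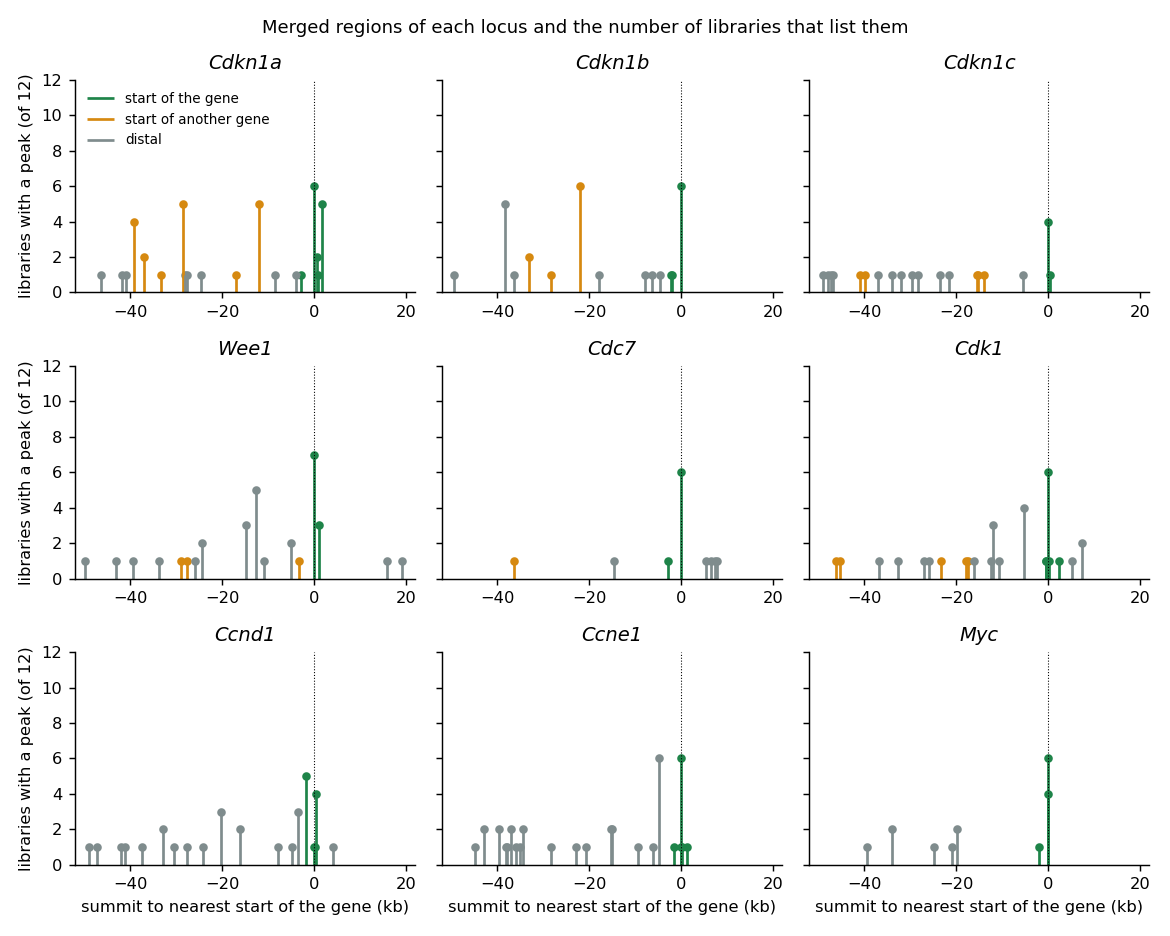
Merged regions of each locus by distance from the nearest start of the gene (x axis, kb, upstream negative) and number of libraries listing them (y axis, of 12). Most bars have height 1, the tallest reaches 7 at Wee1, and Cdkn1a and Cdkn1b also show recurrent regions at starts of other genes.

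Distal regions recurred at 3 genes. One lay at -4712 bp from Ccne1, was intergenic, and was listed in 6 libraries, all at q of 0.05 or less, with a fold enrichment up to 7.54, close to the 7.74 of the promoter itself. Another lay at -12656 bp from Wee1, in an intron of 1600010M07Rik, and was listed in 5 libraries with up to 6.78 fold. The last, at -38229 bp from Cdkn1b in an intron of Gpr19, had up to 4.12 fold, passed q of 0.05 in 1 of 5 libraries, and was missing from every replicate 1 library of the treated groups. The first pair is printed as on the strand of its gene, from chr7:38112171-38112320 and chr7:110109315-110109464, because AP-1 letters stand near each end of the Wee1 region and CCAAT letters, in both orientations, in that of Ccne1. Among the 15 recurrent regions AP-1 letters were present in 3, against 5.10% of the 19344 regions listed in 5 or more libraries on the main chromosomes, and CCAAT letters in 7, against 26.4%.
Ccne1 distal: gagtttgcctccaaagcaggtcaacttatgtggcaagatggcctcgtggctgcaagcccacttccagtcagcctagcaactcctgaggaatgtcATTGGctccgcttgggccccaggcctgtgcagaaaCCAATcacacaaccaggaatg
Wee1 distal: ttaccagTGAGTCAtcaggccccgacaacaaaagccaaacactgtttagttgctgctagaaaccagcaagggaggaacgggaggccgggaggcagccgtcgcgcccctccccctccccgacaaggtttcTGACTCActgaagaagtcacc

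The wider cell cycle machinery was described by the same counts. Of 63 further genes, which include the other cyclins and their kinases, E2F and MCM genes and mitotic kinases, 0 separated E2 from E2 plus fulvestrant in locus peak number. Counted per 10000 peaks, Ccnb1 was lower and Dbf4 and Skp2 were higher with E2, when 8.71% of loci separated. Against vehicle, over the full lists, 4 were lower with E2 (Cdk4, Pkmyt1, Cdc25a and Gmnn), 3 with fulvestrant (Cdk4, Pkmyt1 and Gmnn) and 4 with E2 plus fulvestrant (Gmnn, E2f6, Mycn and Mybl2), and none was higher. All these genes were named after their values were seen. Gmnn, which encodes geminin, an inhibitor of origin licensing, was in all 3 lists, with 5.0 ± 1.0 peaks in vehicle, 1.33 ± 1.15 with E2, 1.67 ± 1.15 with fulvestrant and 2.0 ± 1.0 with E2 plus fulvestrant (exact permutation p = 0.10 each, n = 3). Per 10000 peaks it still separated from vehicle with E2 and with fulvestrant, and not with E2 plus fulvestrant. Of all loci, 7.43% then separated for E2, 8.29% for fulvestrant and 9.01% for E2 plus fulvestrant. As shares of the 63, the counts against vehicle over the full lists are 6.35%, 4.76% and 6.35%, near the backgrounds of 3.43%, 4.8% and 5.83%. The gene of the 63 whose peak number over the 12 libraries was most like that of Wee1 was E2f1 (Spearman's rho 0.918, Pearson's r 0.812). For Cdc7 it was Rbl1 (0.798 and 0.737) and for Cdkn1c Bub1 (0.613 and 0.542). All these counts rise with list length, which the libraries share.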

How the data were processed

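ATAC-seq peaks were analysed from 12 libraries, 3 per treatment, grouped by the labels. Per the methods and the labels, the authors trimmed reads (Trimmomatic 0.39), aligned them to mm10, removed duplicates (Picard 2.21.4) and called peaks with MACS2 in each library, without pooling. Each deposited list gives positions, a fold enrichment (the authors' ratio of pileup to local background, with 1 added to both), −log10 p-values, −log10 q-values and a score. The deposited score repeats the −log10 p-value and was not analysed further. The smallest deposited −log10 p-value was 2.01, so lists ended at a p-value of 0.01. No read totals are given, so tags under a summit were solved as the whole number fitting fold enrichment and p-value within 0.002.

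Starts, genes and exons came from GENCODE M21 and RefSeq, and sequences from the GRCm38.p6 assembly. Peak numbers of each pair of groups were tested by two-sided exact permutation, adjusted by Benjamini-Hochberg over all loci. Promoter fold enrichment was compared with limma 3.58.1 (R 4.3.3) on the log2 scale. Alternatives changed the q-value and fold enrichment limits, list length, locus and promoter windows, scaling and replicate block, and left out single libraries. The limma fit with unlisted promoters set to 1 was added after seeing the data. Other steps used Python 3.11.15, pandas 2.3.3 and scipy 1.17.1. The tests were tried on simulated data with known answers. The members, the 63 further genes and the markers were chosen with earlier results of these data known. All 9 members were named. The rule for the 63 further genes named those separating E2 from E2 plus fulvestrant or passing limma, of which there were 0, and the 1 most like each of Wee1, Cdc7 and Cdkn1c. Those separating from vehicle lie outside the rule and were named after their values were seen. The authors' own comparisons of read counts were not used here.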

Additional observations from a re-analysis of the deposited data

How the results depend on the processing

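No locus or promoter was called in any contrast under any setting run, including the replicate block, with 0 calls in each contrast for locus peak number (smallest possible p 0.25) and 0 for promoters. Deviations of libraries of the same number correlated weakly (r of 0.197, 0.0503 and 0.0421 for E2 and E2 plus fulvestrant), though each was the best match of its number. In the contrasts with vehicle, r ran from -0.0386 to 0.149. The best match there had another number for E2 number 1, fulvestrant numbers 2 and 3, and E2 plus fulvestrant number 1. The main tests were unpaired and took no account of replicate number 1, which stood apart in every group. Its libraries had 22 to 36 Y chromosome peaks, against 854 to 1148 in the others. No blocked value changed a call. With the block, the interval of Cdkn1a for E2 minus E2 plus fulvestrant, with unlisted promoters set to 1, was 0.07 to 2.56 and no longer included 0, and 326 in place of 139 promoters had an unadjusted p under 0.05 in that contrast. The ratios of summed peaks all moved by less than the spread between replicates, but that spread was wide. It was 0.957 on a ratio of 1.13 for E2 over E2 plus fulvestrant and 0.39 on 0.667 for E2 over vehicle. For fulvestrant over vehicle it was 0.442 on 0.538, and for E2 plus fulvestrant over vehicle 0.389 on 0.591. Of 296 recomputed summary values, 256 kept their side or size. These include counts of calls that stayed at 0, which for locus peak number was fixed, since no p under 0.05 was possible. The total is therefore no measure of stability.

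The number of the 9 genes whose groups did not overlap was 0, 0, 1 and 1 for E2 minus E2 plus fulvestrant, E2 minus vehicle, fulvestrant minus vehicle and E2 plus fulvestrant minus vehicle. Of all loci, 2.16%, 3.43%, 4.8% and 5.83% did not overlap. The number of genes ranged from 0 to 2, 0 to 6, 1 to 7 and 1 to 5 when single libraries were left out. The top values came without replicate 1 of the treated group, or of E2 plus fulvestrant in the first contrast. In those cases 9.21%, 24.9%, 30.2% and 27.1% of all loci separated. Within replicate numbers 2 and 3 it was 2 higher in the first contrast and 6, 7 and 5 lower in the others, by fewer libraries. Of all loci, 9.88% were then higher in the first contrast and 29.5%, 35.5% and 32.1% lower in the others. With the gene body only it was 1 in the first contrast (Cdc7, lower with E2, beside 2.25% of loci) and 0 in the last (3.61%). With 10000 bp upstream it was 1 in the second (Wee1, beside 2.56%) and 0 in the last pair (3.25% and 3.93%). Peaks of q of 0.05 or less and of fold enrichment of at least 5 gave 0 in the last pair, and equal list length and peaks per 10000 gave 0 in the last. For fulvestrant minus vehicle the count stayed 1 per 10000 peaks (Ccne1, beside 8.29% of loci), but the gene was Cdkn1c with equal list length (2.57%) and Wee1 with the gene body (3.25%). Regions listed by all libraries of 1 group and 0 of the other numbered 0 in each contrast and up to 2, 3, 2 and 2 with a library left out. With q of 0.05 or less, member promoters listed went from 21, 13, 12 and 17 in vehicle, E2, E2 plus fulvestrant and fulvestrant to 12, 10, 9 and 12, so that vehicle no longer exceeded fulvestrant, and with fold enrichment of at least 5 the 4 groups had 9, 6, 5 and 7. The causes were not tested. Single-gene differences changed sign in 18, 15, 12 and 17 of 126 recomputed values per contrast, so peak numbers this low do not fix a direction.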
